A study of Mus musculus with 18 samples.

Results

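The collagen genes were taken as every symbol of both count tables written as Col, a number, the letter a and a number. This gave 44 genes of 24421, in 9 classes by the structure their chains build. RNA was sequenced in 18 libraries of mouse bone marrow (BM) mesenchymal stromal cells (MSCs), 3 libraries in each of 6 groups. For 12 libraries, CD51+ PDGFRα+ cells were taken from C57BL/6 mice 4 to 6 months old that carried a flox-stop-flox tdTomato reporter. All of these cultures received Cre-loaded vesicles (Gesicles, 10 μL per well for 12 h), the tdTomato+ cells were sorted again after 48 h, and RNA was taken at week 1 or week 4, which gave Pot1awt/wt and Pot1aΔ/Δ groups at each week (called wt/wt and Δ/Δ). Pot1a encodes a telomere-binding protein. The other 6 libraries were of tdTomato+ BM cells of NG2-cre/loxp-tdTomato mice 2 weeks old, titled Pot1awt/Δ (called wt/Δ, the controls) or Pot1aΔ/Δ. NG2 is the product of Cspg4, a gene that pericytes use, and its Cre is not limited to marrow. The genotype field reads POT1afl/fl for all 6 of these libraries, so their groups follow the titles, and by title the controls also carry a Δ allele. The labels number the replicates but do not say that they are separate animals or cultures, so p-values measure the spread between these samples.

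Collagens are matrix proteins whose α chains wind around each other into a stiff helix inside the cell before they are secreted. Fibrillar collagens build the cables that carry load in bone, tendon and cartilage, and type I collagen, made of the Col1a1 and Col1a2 products, is the main protein of bone matrix. Type IV chains form the sheet of basement membranes, type VI chains form beaded filaments around cells, types VIII and X form networks of short chains, and FACIT collagens sit on the surface of fibrils built by others. In marrow and bone, stromal cells, osteoblasts and the cartilage of the growth plate each make their own set of chains.

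Libraries held 12807832 to 90717232 counts in culture and 28918757 to 49992698 in sorted cells, and 38 to 43 of the 44 collagens had counts in each library. The filter on low counts kept 36 collagens in culture, without Col4a4, Col6a5, Col6a6, Col9a1, Col9a2, Col9a3, Col19a1 and Col26a1. It kept 39 in sorted cells, without Col4a4, Col4a6, Col6a4, Col6a6 and Col7a1. Col11a2, Col13a1 and Col22a1 passed it in culture only through week 4 wt/wt, so their contrasts with that group were fixed by the filter and are given below as descriptions, with no p. The targeted gene was not set apart as lower in Δ/Δ. Pot1a stood at 33.8 to 36.6 CPM (a gene's share of a library's counts, times 1e6, scaled by TMM) in wt/wt and 31.1 to 37.9 CPM in Δ/Δ at week 1, at 33.1 to 37.8 and 42.8 to 47.9 CPM at week 4, and at 26.9 to 34.3 and 19.1 to 31.0 CPM in sorted wt/Δ and Δ/Δ cells. Counts over the whole gene cannot show a lost exon, so each direction given for Δ/Δ is that of the libraries labelled Δ/Δ. Summed stromal markers stood at 11040 to 31670 and 15910 to 22200 CPM in sorted wt/Δ and Δ/Δ cells, with none at 0, and endothelial markers at 1079 to 1740 and 1717 to 1860 CPM, against at most 6.76 CPM in culture. Haematopoietic markers stood at 629 to 1658 and 696 to 990 CPM in the same groups, against at most 18 CPM in culture.

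The collagens together took 2.13% to 5.40% of a library's counts. At week 1 the share was 3.14%, 3.68% and 2.92% in wt/wt replicates 1, 2 and 3 and 3.92%, 3.70% and 4.08% in Δ/Δ, so the closest libraries of the groups lay nearer to each other than to the rest of their own group. On the TMM scale used for the tests the groups overlapped, with wt/wt replicate 2 at 3.79% and Δ/Δ replicate 2 at 3.73%. At week 4 it was 2.13%, 4.46% and 4.02% in wt/wt and 2.17%, 2.98% and 3.01% in Δ/Δ, with overlap through wt/wt replicate 1. Fibrillar chains filled most of every library's share. In sorted cells the share was 2.53%, 4.90% and 4.75% in wt/Δ and 5.40%, 4.77% and 2.43% in Δ/Δ, so the spread within each group was wider than the gap between them. Fibrillar chains made up 74.3% to 83.9% of collagen counts in culture and 85.8% to 94.2% in sorted cells. Network chains made up 2.71% to 3.84% of them in week 4 wt/wt and 5.48% to 7.22% in week 4 Δ/Δ, with no overlap.

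**Figure D1:**
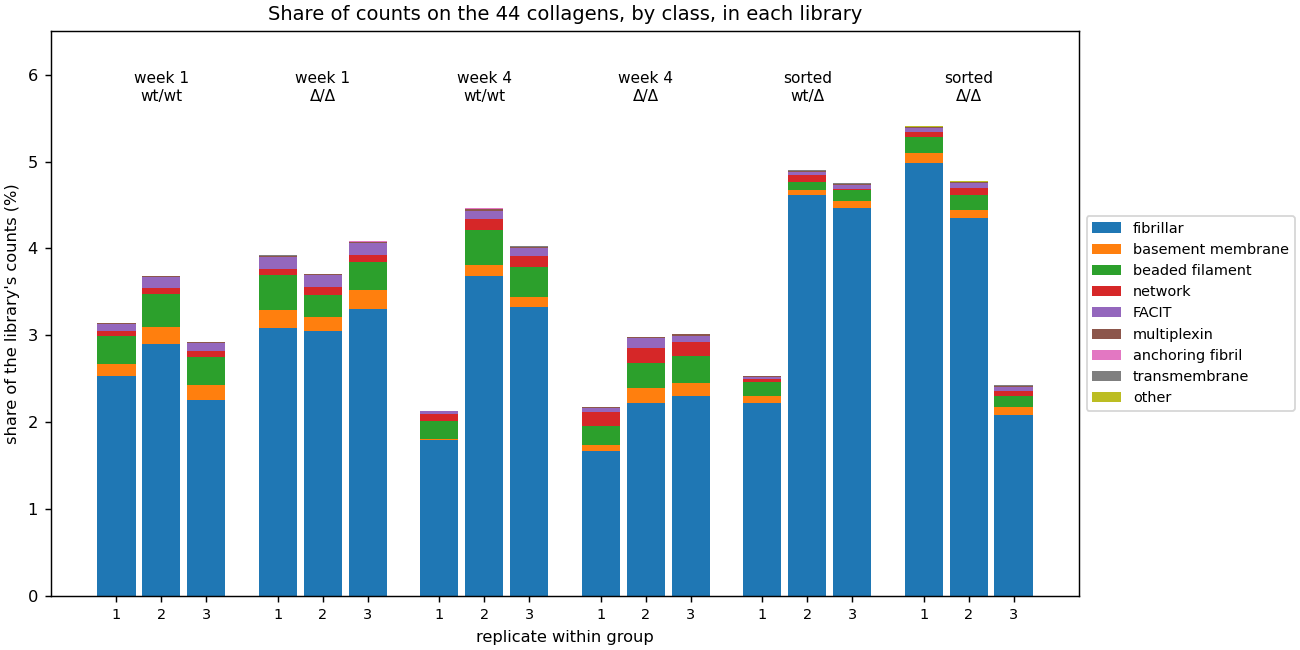
Share of each library's counts (percent, vertical axis) on the 44 collagens, stacked by class, with 1 bar per library and 3 replicates per group. Fibrillar chains fill most of every bar, and replicate 1 of both week 4 groups stands lowest in its group, at 2.13% and 2.17%.

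CPM per kilobase of transcript was used to set levels of different genes side by side. In week 1 wt/wt Col1a2 led (mean 1370 ± 174 CPM per kb, SD, n = 3), then Col2a1 (1304 ± 206), Col1a1 (891 ± 235) and Col3a1 (678 ± 61.1), and Col1a2 and Col2a1 did not differ beyond their spread. The order in week 4 wt/wt was Col1a2 (2008 ± 551), Col1a1 (1392 ± 640.0), Col3a1 (893 ± 305) and Col2a1 (499.7 ± 233). The ranges of mean ± SD overlapped between neighbours, though Col1a1 was below Col1a2 in each of these libraries (ratio 0.47 to 0.8). In week 4 Δ/Δ the order was Col3a1 (1236 ± 164) and Col1a2 (1139 ± 175), close together, then Col1a1 (527 ± 156) and Col6a1 (419.5 ± 43.8), also close. Col1a2 thus led 5 of the 6 groups. Sorted cells were led by Col1a2 (4535 ± 1540 in wt/Δ and 4883 ± 2007 in Δ/Δ) and Col1a1 (1825 ± 967 and 1317 ± 649), well above Col6a1 (187 ± 68.3 and 225 ± 60.5). Sorted cells come from a table normalized separately, and no level was tested across the tables.

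The comparison of genotypes at week 1 asks what differed soon after deletion. A single collagen, Col15a1, was called, and it was lower in Δ/Δ. By edgeR's quasi-likelihood test at an adjusted p of 0.05, 0 of 36 collagens tested were higher and 1 was lower, beside 0.752% and 0.266% of all 13169 genes, and 3 had an unadjusted p under 0.05. DESeq2 called 1 higher, Col8a2, and 1 lower. The log2 fold change was above 0 for 26 collagens and below 0 for 9, Col13a1 having no counts, with a median of 0.23, beside -0.0036 over all genes.

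Col15a1, a collagen of basement membrane zones, stood at 13.9, 16.7 and 13.3 CPM in week 1 wt/wt and 8.1, 5.97 and 7.63 CPM in Δ/Δ. Every Δ/Δ library was below every wt/wt library, a log2 difference of -1.01 ± 0.17 (adjusted p = 0.0135), where ± gives the SE here and in all fold changes that follow. The call was lost without wt/wt replicate 2 (adjusted p = 0.0618), Δ/Δ replicate 2 (0.0775) or Δ/Δ replicate 3 (0.0563). At week 4 Col15a1 stood at 16.8, 20.6 and 16.4 CPM in wt/wt and 12.9, 11.3 and 15.0 CPM in Δ/Δ, again without overlap (-0.45 ± 0.16, adjusted p = 0.086). It rose over time in Δ/Δ by 0.86 ± 0.17 (adjusted p = 0.00172). Col8a2, a chain of type VIII networks, stood at 39.0, 31.6 and 27.5 CPM in wt/wt and 71.1, 114 and 117 CPM in Δ/Δ at week 1. Its groups did not overlap either, but the test missed the threshold (1.63 ± 0.40, adjusted p = 0.0777), which DESeq2 passed (adjusted p = 0.00179).

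At week 4 more collagens differed by genotype. Lower in Δ/Δ were 4 fibrillar chains (Col1a1, Col1a2, Col11a1, Col11a2), the FACIT chain Col22a1, the anchoring fibril chain Col7a1 and the transmembrane Col13a1. Higher were the network chains Col8a1 and Col10a1, the FACIT chain Col14a1 and Col28a1. This is 4 higher and 7 lower of 36, beside 9.2% higher and 6.46% lower of all genes. Among the 7 lower, Col11a2, Col13a1 and Col22a1 passed the filter only through week 4 wt/wt. Their direction was fixed by it, and they are no support for the count. Among the 27 collagens with at least 10 counts in every library, where no gene could enter through 1 group, 3 were higher and 4 lower. The share of all genes called in that fit is not given. The median log2 fold change of the 36 was -0.06, beside 0.0024 over all genes. None of the 5 type IV and 4 type VI chains tested was called in this fit.

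**Figure D2:**
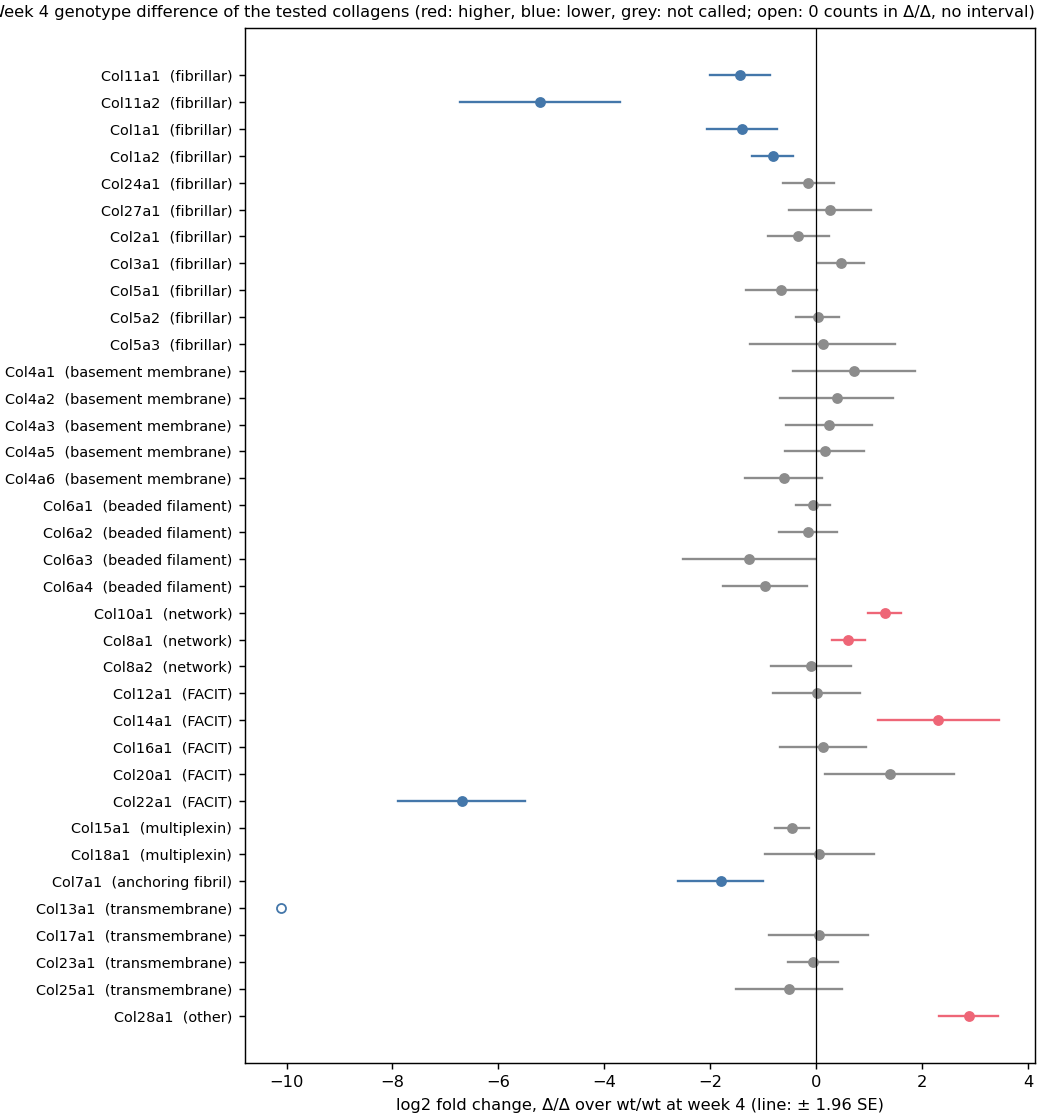
Log2 fold change of Δ/Δ over wt/wt at week 4 (horizontal axis) for the 36 collagens tested, by class, with lines of the 95% interval. Of these, 4 are called higher and 7 lower, and the others are grey. Among the 7, Col11a2, Col13a1 and Col22a1 passed the filter only through week 4 wt/wt, which fixed their direction. The open point is Col13a1, which had 0 counts in Δ/Δ, so its fitted position is no bound and has no line.

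Markers of other cell types moved with these calls. The summed level of 6 osteoblast markers (Bglap, Ibsp, Alpl, Sp7, Dmp1, Ifitm5) was 7413 to 9549 CPM in week 4 wt/wt and 1895 to 2674 CPM in Δ/Δ, against 851 to 912 and 1110 to 1366 CPM at week 1. All 6 were at 1 CPM or more in every week 4 wt/wt library and 4 of them in every Δ/Δ library, with none at 0. The sum of 8 stromal markers (Pdgfra, Itgav, Lepr, Cxcl12, Thy1, Nt5e, Eng, Ly6a) was 6863 to 8937 CPM in week 4 wt/wt and 13420 to 17230 CPM in Δ/Δ, where Thy1 had 0 counts. In bulk RNA, fewer cells of a type and less RNA per cell cannot be told apart, and the part of these cells in the collagen differences was not tested.

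Both week 4 replicate 1 libraries stood apart in their long, GC-rich transcripts (over 6000 bases, over 55% GC and a mean log2(CPM + 1) over 3, which gave 127 genes with 4 collagens). The median of these genes lay -1.09 (wt/wt) and -0.51 (Δ/Δ) from the group mean on the log2 scale, against 0.50 and 0.63 in the other wt/wt libraries and 0.19 and 0.32 in the other Δ/Δ libraries. Most collagens were lower in the same libraries, though only 4 are among the 127 genes. The part of transcript length and GC content in this, or of the cultures themselves, was not tested. Of 24 collagens above 1 CPM in all 6 libraries, 23 were lower in replicate 1 than in the mean of replicates 2 and 3 in wt/wt, 15 of them by more than 1 log2 unit, where 48.1% and 7.84% of all 11303 such genes were. In Δ/Δ 23 were lower, 6 by more than 1 unit, where 46% and 1.97% of all genes were. Without both libraries 4 collagens were higher and 11 lower at week 4, all 11 named above among them, with Col2a1, Col5a1, Col6a3 and Col6a4 added as lower. For this fit too the share of all genes called is not given, so the added calls are not set against it.

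**Figure D3:**
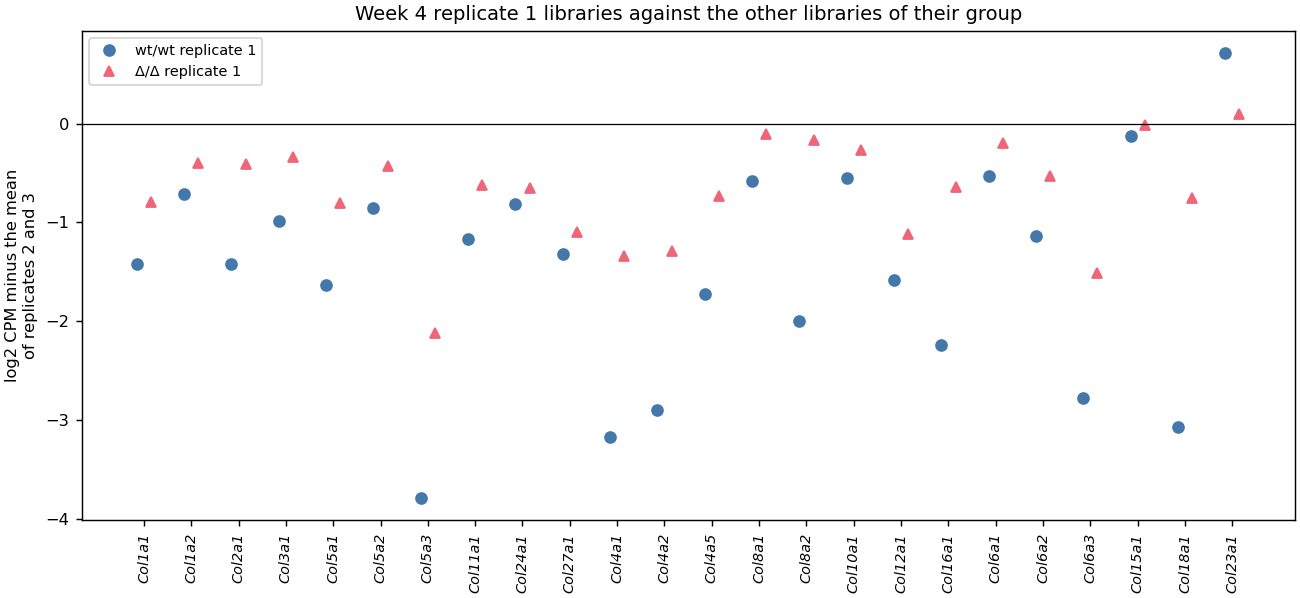
Log2 CPM of replicate 1 minus the mean log2 CPM of replicates 2 and 3 at week 4 (vertical axis) for the 24 collagens above 1 CPM in all 6 libraries, circles for wt/wt and triangles for Δ/Δ. In each genotype 23 of 24 points lie below 0, with a median of -1.37 in wt/wt and -0.63 in Δ/Δ.

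Among fibrillar chains, the genotype difference of type I collagen was called as changed between the weeks, but not once most single libraries were left out. Col1a1 (chr11:94936224-94953042, plus strand, GRCm38) stood at 4155, 6837 and 4855 CPM in wt/wt and 7035, 7188 and 7729 CPM in Δ/Δ at week 1. At week 4 it stood at 3887, 10760 and 10120 CPM in wt/wt and 2095, 3886 and 3394 CPM in Δ/Δ. The Δ/Δ libraries were all above the wt/wt libraries at week 1 and all below them at week 4, there by only 1 CPM between Δ/Δ replicate 2 and wt/wt replicate 1. The difference was 0.47 ± 0.33 (adjusted p = 0.687) at week 1 and -1.40 ± 0.34 (adjusted p = 0.0135) at week 4. The test of the change in difference gave -1.87 ± 0.48 (adjusted p = 0.0319), and it was lost without any 1 of 9 of the 12 libraries, at an adjusted p between 0.0577 and 0.0842. It held without week 1 wt/wt replicate 2, week 4 wt/wt replicate 1 or week 4 Δ/Δ replicate 2. The week 4 call was lost without wt/wt replicate 2 (adjusted p = 0.0567) or 3 (0.0517) and in a fit of only the 6 libraries (0.063). Over time Col1a1 fell in Δ/Δ by 1.23 ± 0.34 (adjusted p = 0.014), though not without week 4 replicate 1 (0.0539). In wt/wt the change over time was 0.64 ± 0.34 (adjusted p = 0.163), and 0.98 ± 0.24 (adjusted p = 0.00709) without week 4 replicate 1.

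Col1a2 (chr6:4504814-4541544, plus strand), the partner chain, followed the same order. It stood at 7717, 7994 and 6263 CPM in wt/wt and 8696, 8917 and 9228 CPM in Δ/Δ at week 1, and at 7522, 13310 and 11390 CPM in wt/wt and 5016, 6558 and 6702 CPM in Δ/Δ at week 4. The groups did not overlap at either week and changed places between them. The week 4 difference was -0.82 ± 0.20 (adjusted p = 0.0131) and the change in difference -1.11 ± 0.28 (adjusted p = 0.0301), which was lost without any 1 of 8 of the 12 libraries (adjusted p between 0.0513 and 0.0861). The week 4 call was lost without wt/wt replicate 2 (adjusted p = 0.0593) and in a fit of only the 6 libraries (0.0654). Over time Col1a2 rose in wt/wt by 0.55 ± 0.20 (adjusted p = 0.0467) and fell in Δ/Δ by 0.55 ± 0.20 (adjusted p = 0.0449). Neither call was firm. That in wt/wt was lost once the replicate number was blocked (0.52 ± 0.18, adjusted p = 0.0514) and without week 1 replicate 1, 2 or 3 (0.0774, 0.0611 and 0.163) or week 4 replicate 2 or 3 (0.183 and 0.107). It was also lost in fits of only the 6 wt/wt libraries, without the block (0.121) and with it (0.163). That in Δ/Δ was lost without any 1 of its 6 libraries, at an adjusted p between 0.0607 and 0.16.

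Col3a1, the fibrillar chain of soft tissues, went another way. It stood at 3527, 4160 and 3628 CPM in wt/wt and 4277, 4060 and 4837 CPM in Δ/Δ at week 1, and at 3012, 6054 and 5842 CPM in wt/wt and 5852, 7157 and 7615 CPM in Δ/Δ at week 4. Genotypes overlapped at both weeks, with 0.22 ± 0.22 (adjusted p = 0.826) and then 0.47 ± 0.22 (adjusted p = 0.201). With offsets for transcript length and GC content Col3a1 was called higher in week 4 Δ/Δ (0.50 ± 0.13, adjusted p = 0.0151), also with the replicate block added (adjusted p = 0.0141). Col3a1 rose over time in Δ/Δ by 0.65 ± 0.22 (adjusted p = 0.039), without overlap. This call was lost without week 1 replicate 1 (0.0929), 2 (0.115) or 3 (0.0604) and without week 4 replicate 2 (0.0798) or 3 (0.121). In wt/wt the change was 0.40 ± 0.22 (adjusted p = 0.192), and 0.66 ± 0.14 (adjusted p = 0.00317) without week 4 replicate 1.

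The type XI chains, which sit inside fibrils and help to set their width, were lower in week 4 Δ/Δ. Col11a1 (chr3:114030540-114220718, plus strand) stood at 34.7, 74.7 and 81.4 CPM in wt/wt and 17.2, 30.6 and 23.0 CPM in Δ/Δ, without overlap (-1.44 ± 0.28, adjusted p = 0.00383). At week 1 its ranges of 102 to 149 and 116 to 129 CPM overlapped. It fell over time in Δ/Δ by 2.37 ± 0.29 (adjusted p = 5.88e-05) and in wt/wt by 0.93 ± 0.28 (adjusted p = 0.0212, lost without week 1 replicate 2 at 0.0905 and in a fit of only the 6 libraries at 0.0547). The test of that difference gave -1.44 ± 0.39 (adjusted p = 0.0467). It was lost without any 1 of 9 of the 12 libraries (adjusted p between 0.0856 and 0.112) and with at least 10 counts in every library (0.0566). Col11a2 (chr17:34039437-34066685, plus strand) stood at 1.72, 31.9 and 17.6 CPM in week 4 wt/wt and 0.35, 0.35 and 0.57 CPM in Δ/Δ. At week 1 it stood at 0.077 to 0.23 CPM in wt/wt and 0.24 to 0.44 CPM in Δ/Δ. Among the cultures it exceeded 1 CPM only in the 3 week 4 wt/wt libraries, of which replicate 1 was far the lowest. The week 4 difference was -5.21 ± 0.77 and the difference between the weeks in wt/wt 6.59 ± 0.90, both fixed in direction by the filter.

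Col2a1, the main fibrillar chain of cartilage, was among the highest collagens in culture. It stood at 6375, 7815 and 5774 CPM in wt/wt and 7716, 7339 and 8044 CPM in Δ/Δ at week 1, and at 1199, 3439 and 3014 CPM in wt/wt and 1659, 2126 and 2278 CPM in Δ/Δ at week 4. The weeks did not overlap in either genotype. Col2a1 fell by 1.38 ± 0.30 in wt/wt (adjusted p = 0.00345) and by 1.93 ± 0.30 in Δ/Δ (adjusted p = 0.000377). Some genes that cartilage cells use beside Col2a1 were at or near 0 in culture and others were not. Col9a1, a type IX chain, had counts in 2 of 12 libraries and reached 0.06 CPM. Acan, the large cartilage proteoglycan, had 0 counts in 3 of the 4 culture groups, and Matn1, a cartilage matrilin, in all 4, while Comp, a cartilage matrix glycoprotein, ranged from 18.7 to 77.7 CPM and Sox9, a cartilage transcription factor, from 19.6 to 35.7 CPM. The 7 chondrocyte markers in the table summed to 52.6 to 69.4 CPM in wt/wt and 80.5 to 104 CPM in Δ/Δ at week 1, and to 44 to 60.5 and 72.3 to 79.3 CPM at week 4, without overlap by genotype at either week. Of these markers Comp followed the sum, while Sox9 was lower in Δ/Δ at week 1 and overlapped at week 4.

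The other fibrillar chains were not called by genotype. Col5a1, a type V chain that helps to start fibrils, stood at 561, 1787 and 1693 CPM in week 4 wt/wt and 571, 964 and 1023 CPM in Δ/Δ (-0.66 ± 0.34, adjusted p = 0.246). Without both replicate 1 libraries its difference was -0.81 ± 0.13 (adjusted p = 0.00126). Its partner Col5a2 stood at 886 to 1734 CPM in wt/wt and 1137 to 1550 CPM in Δ/Δ, and Col5a3 at 4.11 to 60.6 and 13.3 to 58.2 CPM. Col24a1, known from developing bone, rose over time by 1.35 ± 0.26 in wt/wt (adjusted p = 0.00157) and 1.29 ± 0.26 in Δ/Δ (adjusted p = 0.00228). Col27a1, known from cartilage, rose by 1.57 ± 0.44 in wt/wt (adjusted p = 0.0144) and 1.72 ± 0.43 in Δ/Δ (adjusted p = 0.00857). The Col27a1 calls were lost without week 1 wt/wt replicate 1 (adjusted p = 0.0592) or week 4 wt/wt replicate 3 (0.0514), and without week 4 Δ/Δ replicate 3 (0.0521).

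**Figure D4:**
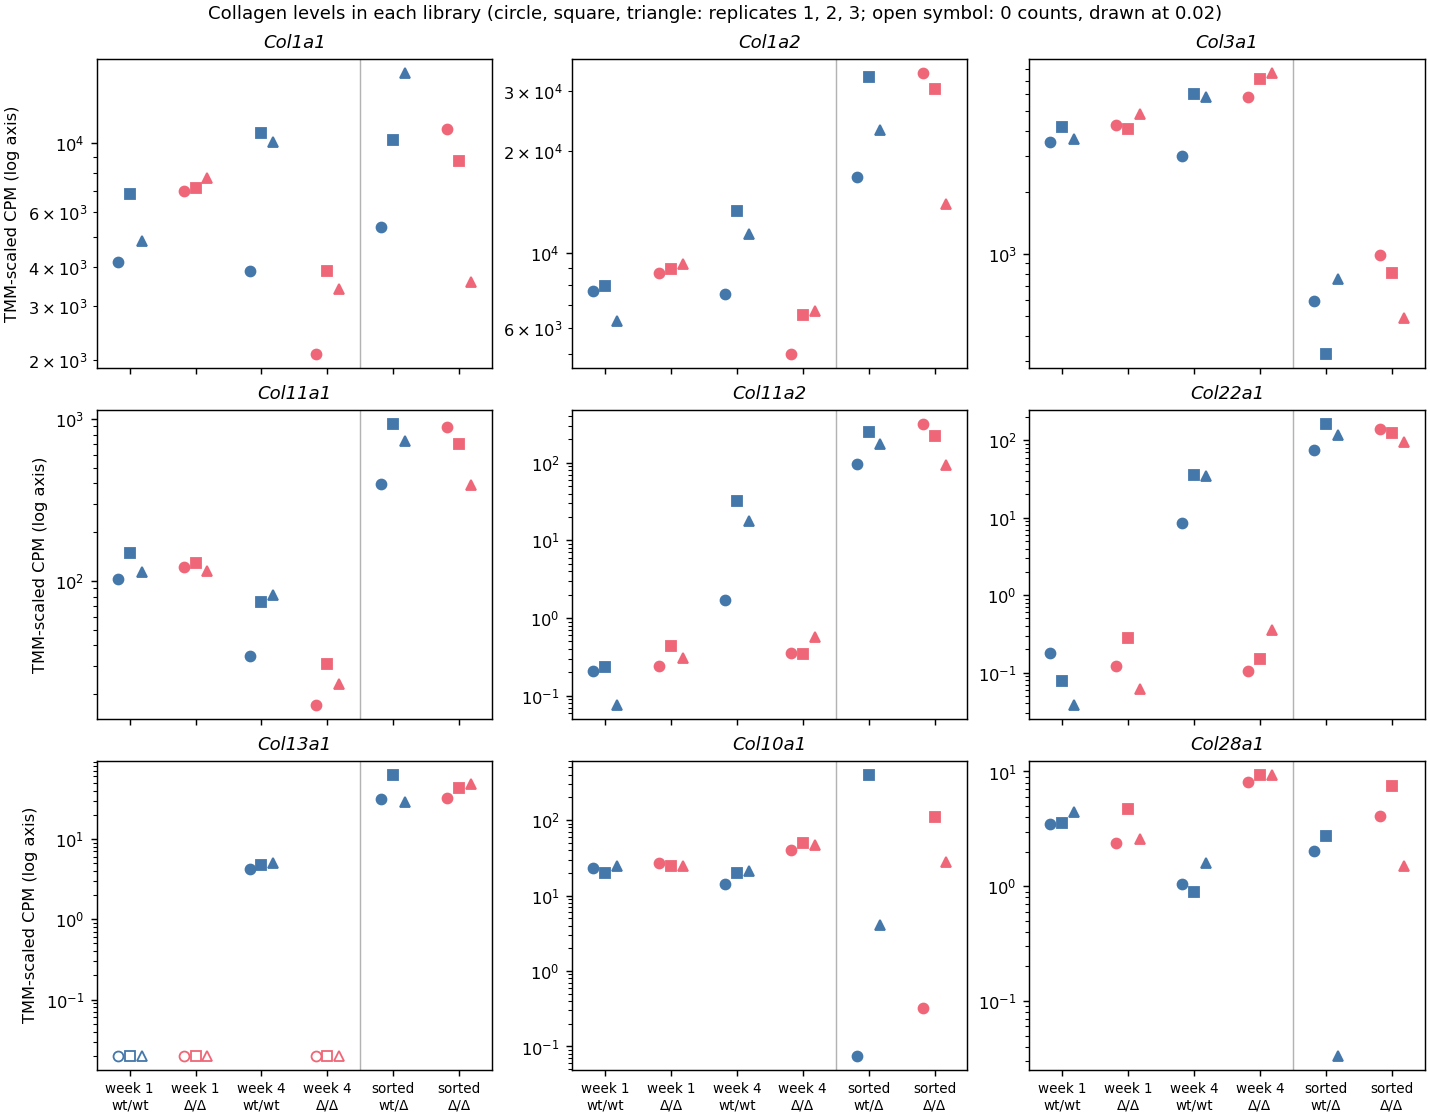
TMM-scaled CPM (log axis) of 9 collagens in all 18 libraries, 3 per group, with replicates 1, 2 and 3 as circle, square and triangle and 0 counts as open symbols. Among the cultures Col11a2, Col13a1 and Col22a1 pass 1 CPM only in week 4 wt/wt, and Col1a1 is lowest and Col10a1 and Col28a1 highest in week 4 Δ/Δ. The sorted cells come from a separate table.

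Col22a1 and Col13a1 were close to absent from the cultures outside week 4 wt/wt. Col22a1 (chr15:71795795-72034227, minus strand), a FACIT chain known from tissue junctions, stood at 8.44, 36.1 and 34.8 CPM in week 4 wt/wt and 0.11, 0.15 and 0.36 CPM in Δ/Δ, and at no more than 0.28 CPM at week 1. Replicate 1 was again the lowest of the wt/wt libraries. The week 4 difference was -6.69 ± 0.61 and the difference between the weeks in wt/wt 7.94 ± 0.70, with a change in genotype difference of -7.05 ± 1.70, all resting on the group that let the gene pass the filter. Col13a1 (chr10:61838236-61979108, minus strand), a membrane collagen of cell contacts, stood at 4.18, 4.67 and 5.0 CPM in week 4 wt/wt and had 0 counts in the 9 other culture libraries. Against a floor of 3 counts over a group, it was at least 217-fold higher than in week 4 Δ/Δ, at least 131-fold higher than in week 1 wt/wt and at least 104-fold higher than in week 1 Δ/Δ. With both week 1 groups at 0, its change in genotype difference cannot be read. Sorted cells of both genotypes held Col13a1 at 29.1 to 62.6 CPM.

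The other FACIT chains gave few calls. Col12a1, the highest of the class per kilobase, stood at 269, 838 and 778 CPM in week 4 wt/wt and 340.5, 1037 and 528 CPM in Δ/Δ (0.015 ± 0.42, adjusted p = 0.989). Col14a1, which like Col12a1 binds fibrils, stood at 0, 0.18 and 0.67 CPM in wt/wt and 0.95, 1.98 and 2.1 CPM in Δ/Δ. Its groups did not overlap (2.31 ± 0.58, adjusted p = 0.0168), but the call was lost without wt/wt replicate 2 (0.0756), without Δ/Δ replicate 3 (0.074) and in a fit of only the 6 libraries (0.0738). Col16a1 stood at 29.8 to 151 CPM in week 4 wt/wt and 82.9 to 129.8 CPM in Δ/Δ. Between the weeks in wt/wt, Col14a1 differed by -1.49 ± 0.62 (adjusted p = 0.0832) and Col16a1 by -1.09 ± 0.42 (adjusted p = 0.0632), which missed the threshold. Once the replicate number was blocked both passed it, Col14a1 at -1.68 ± 0.50 (adjusted p = 0.0246) and Col16a1 at -1.24 ± 0.37 (adjusted p = 0.0262), but neither was called with the block in a fit of only the 6 wt/wt libraries. Col14a1 was also called with DESeq2 (adjusted p = 0.0255) and with the block and the length and GC offsets (adjusted p = 0.0224). Col16a1 was also called with no filter (adjusted p = 0.0383), with the offsets (adjusted p = 0.000275, and adjusted p = 0.000166 with the block) and without both week 4 replicate 1 libraries (adjusted p = 0.00626). Col20a1 was at or under 0.67 CPM in culture, and Col9a2, Col9a3 and Col19a1 at or under 0.47 CPM.

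Of the 3 network chains, 2 were higher in week 4 Δ/Δ. Col10a1 (chr10:34389981-34397085, plus strand), the collagen of hypertrophic cartilage, stood at 23.1, 19.9 and 24.9 CPM in wt/wt and 26.9, 24.9 and 24.6 CPM in Δ/Δ at week 1. At week 4 it stood at 14.1, 20.1 and 21.4 CPM in wt/wt and 40.1, 49.6 and 47.1 CPM in Δ/Δ. Each week 4 Δ/Δ library was above all 9 other culture libraries. The week 4 difference was 1.29 ± 0.16 (adjusted p = 0.000119) and the change in difference 1.12 ± 0.22 (adjusted p = 0.00753), and Col10a1 rose over time in Δ/Δ by 0.84 ± 0.16 (adjusted p = 0.00125). The sum of chondrocyte markers given above was also higher in Δ/Δ than in wt/wt at both weeks, but it followed Comp. Comp stood at 46.1 to 57.8 CPM in Δ/Δ and 21.7 to 39.7 CPM in wt/wt at week 4. Sox9 overlapped there, at 19.6 to 25.2 and 19.9 to 25.1 CPM. At week 1 Sox9 was lower in Δ/Δ, at 22.3 to 28.9 CPM against 29.6 to 35.7 CPM. The part of such cells in the Col10a1 levels was not tested. Col10a1 lies inside Nt5dc1, a gene of the other strand, and shares 18 exonic bases with it (0.575% of its own), whose counts cannot be told apart without strand.

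Col8a1, a type VIII chain known from vessel walls and the eye, was the highest network chain per kilobase. It stood at 538, 603 and 611 CPM in wt/wt and 614, 809 and 708 CPM in Δ/Δ at week 1, and at 741, 1080 and 1143 CPM in wt/wt and 1430, 1593 and 1492 CPM in Δ/Δ at week 4. The genotypes did not overlap at either week. The week 4 difference was 0.61 ± 0.16 (adjusted p = 0.0205), lost without Δ/Δ replicate 2 (0.0678) or 3 (0.0542) and in a fit of only the 6 libraries (0.0863). Col8a1 rose over time in wt/wt by 0.76 ± 0.16 (adjusted p = 0.00282) and in Δ/Δ by 1.08 ± 0.16 (adjusted p = 0.000237). Its partner Col8a2 stood at 28.3, 124 and 104 CPM in wt/wt and 74.3, 83.3 and 83.5 CPM in Δ/Δ at week 4. It rose over time in wt/wt by 1.39 ± 0.39 (adjusted p = 0.0163) although week 4 replicate 1 lay within the week 1 range, and the call was lost without replicate 2 or 3 of week 1 (0.0509 and 0.0624) or of week 4 (0.0721 and 0.0514). In fits of only the 6 wt/wt libraries it was lost without the block (0.0565) and with it (1.20 ± 0.51, adjusted p = 0.139).

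Col28a1 (chr6:7997808-8192617, minus strand), a collagen outside the main classes that carries von Willebrand factor A domains, moved in opposite directions in the genotypes. It stood at 3.48, 3.59 and 4.44 CPM in wt/wt and 2.36, 4.7 and 2.58 CPM in Δ/Δ at week 1, and at 1.05, 0.9 and 1.59 CPM in wt/wt and 8.06, 9.33 and 9.34 CPM in Δ/Δ at week 4. The genotypes overlapped at week 1 and were far apart at week 4. Col28a1 fell over time in wt/wt by 1.66 ± 0.29 (adjusted p = 0.000752) and rose in Δ/Δ by 1.48 ± 0.26 (adjusted p = 0.000737). The week 4 difference was 2.88 ± 0.28 (adjusted p = 1.95e-05) and the change in difference 3.15 ± 0.39 (adjusted p = 0.000302). Col26a1, the other collagen placed outside the classes, was at or under 0.13 CPM in culture.

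Type IV and type VI chains were not called by genotype at either week, though several were at week 4 under other settings. Col4a1 stood at 65.3, 620.0 and 556 CPM in week 4 wt/wt and 334, 958 and 743 CPM in Δ/Δ, and Col4a2 at 61.9 to 502 and 218 to 577 CPM. Both genes start back to back and share 22 exonic bases. Their week 4 differences were 0.71 ± 0.59 (adjusted p = 0.497) and 0.39 ± 0.54 (adjusted p = 0.724), with low values in both replicate 1 libraries. With the replicate block and the length and GC offsets both were called higher in Δ/Δ, Col4a1 at 1.02 ± 0.31 (adjusted p = 0.044) and Col4a2 at 0.69 ± 0.20 (adjusted p = 0.0379). Col4a5 ranged over 67.5 to 264 CPM in culture and Col4a6 over 0.99 to 3.27 CPM, and Col4a3 and Col4a4, chains of the kidney filter, stayed at or under 0.54 CPM. The products of Col6a1, Col6a2 and Col6a3 join in one type VI molecule. Col6a1, the highest of them per kilobase, stood at 1627, 1691 and 1584 CPM in wt/wt and 1583, 1189 and 1382 CPM in Δ/Δ at week 1, and at 1382, 2127 and 1860 CPM in wt/wt and 1566, 1676 and 1918 CPM in Δ/Δ at week 4. The week 1 genotypes were apart by 1 CPM, without a call (-0.24 ± 0.16, adjusted p = 0.655), and those of week 4 overlapped. Col6a2 and Col6a3 ranged over 454 to 1110 and 99.0 to 1538 CPM. Col6a3 stood at 1538, 834 and 1242 CPM in week 1 Δ/Δ and 99.0, 401 and 198 CPM in week 4 Δ/Δ, with no overlap. It fell by 2.37 ± 0.65 (adjusted p = 0.0139), a call lost without week 4 replicate 3 (0.0541). By genotype at week 4 it was called lower in Δ/Δ with the offsets (-1.11 ± 0.33, adjusted p = 0.0322), with the offsets and the block (adjusted p = 0.0234) and without both replicate 1 libraries (adjusted p = 0.0455), as Col6a4 was without those libraries (-1.42 ± 0.42, adjusted p = 0.044). Col6a4, Col6a5 and Col6a6 stayed at or under 1.21 CPM.

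Col7a1, which anchors basement membranes to the matrix beneath, fell in both genotypes. It stood at 6.34, 11.7 and 7.84 CPM in wt/wt and 8.04, 5.86 and 7.51 CPM in Δ/Δ at week 1, and at 1.05, 3.77 and 3.97 CPM in wt/wt and 0.67, 1.19 and 0.83 CPM in Δ/Δ at week 4. Col7a1 fell by 1.49 ± 0.36 in wt/wt (adjusted p = 0.00719) and by 3.03 ± 0.40 in Δ/Δ (adjusted p = 0.000107). The week 4 genotypes overlapped through wt/wt replicate 1 (-1.80 ± 0.41, adjusted p = 0.00929), and the call was lost without Δ/Δ replicate 3 (0.0501). Col18a1, the source of the fragment endostatin, stood at 24.3, 218 and 191 CPM in week 4 wt/wt and 104, 168 and 180.0 CPM in Δ/Δ. Among the transmembrane collagens, Col23a1 rose over time in wt/wt by 1.72 ± 0.27 (adjusted p = 0.00036) and in Δ/Δ by 0.69 ± 0.25 (adjusted p = 0.0475). The latter call was lost without each of the 6 Δ/Δ libraries, at an adjusted p between 0.0541 and 0.16, and with RLE scaling (0.0514), library size only (0.052), no filter (0.0763), DESeq2 (0.0671) or the length and GC offsets (0.0607). Col25a1 rose in wt/wt by 2.56 ± 0.61 (adjusted p = 0.00601), and Col17a1, a collagen of epithelia, stayed at or under 0.67 CPM.

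The comparisons of weeks ask what changed during culture in each genotype. In wt/wt, fitted without the replicate block, 10 collagens rose and 4 fell, beside 17.9% and 16.1% of all genes. Of those 10, Col11a2, Col13a1 and Col22a1 passed the filter only through week 4 wt/wt, and with at least 10 counts in every library 5 rose and 4 fell of 27. In Δ/Δ 8 rose and 6 fell, beside 18.8% and 16.3%. In wt/wt the risers were Col1a2, Col8a1, Col8a2, Col11a2, Col13a1, Col22a1, Col23a1, Col24a1, Col25a1 and Col27a1, and those that fell Col2a1, Col7a1, Col11a1 and Col28a1. In Δ/Δ Col3a1, Col8a1, Col10a1, Col15a1, Col23a1, Col24a1, Col27a1 and Col28a1 rose, and Col1a1, Col1a2, Col2a1, Col6a3, Col7a1 and Col11a1 fell. The wt/wt count was 21 without week 4 replicate 1. Without both replicate 1 libraries, 17 collagens rose and 6 fell in wt/wt, all 14 among them, with Col1a1, Col3a1, Col4a5, Col4a6, Col5a1, Col5a3 and Col18a1 added to those that rose and Col4a1 and Col16a1 to those that fell. With the replicate number blocked, 9 rose and 6 fell, and within the 6 wt/wt libraries 8 rose and 4 fell, all of them among the 14. In Δ/Δ the 14 calls became 9 without week 4 replicate 3. Shares of all genes are those of the main fits, so the counts of the other fits have none beside them.

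The change in genotype difference between the weeks was called for 7 collagens. It was positive for Col10a1 and Col28a1 and negative for Col1a1, Col1a2, Col11a1, Col11a2 (-6.09 ± 1.56) and Col22a1, which is 2 and 5 of 36, beside 4.08% and 3.08% of all genes. With at least 10 counts in every library, which left Col11a2 and Col22a1 out, it was called for 2 and 2 of 27. The number called fell to 2 without week 1 Δ/Δ replicate 1 or 2, to 3 without week 1 Δ/Δ replicate 3, week 1 wt/wt replicate 1 or 3 or week 4 Δ/Δ replicate 1, and to 4 without week 4 Δ/Δ replicate 3 or wt/wt replicate 2. It was 12 without week 4 wt/wt replicate 1. Col10a1 and Col28a1 were called in each of these, and the shares of all genes called in these fits are not given.

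The bases before the start of Col11a2, Col13a1, Col10a1 and Col28a1 are shown because these collagens had large week 4 contrasts and a window, the first pair lower and the second pair higher in Δ/Δ. Each window is the 250 bases upstream of the RefSeq start in GRCm38.p6, at chr17:34038888-34039137 (plus strand), chr10:61979109-61979358 (minus strand), chr10:34389731-34389980 (plus strand) and chr6:8192618-8192867 (minus strand). RefSeq windows were matched for 35 of the 44 collagens, and Col1a1, Col2a1, Col4a3, Col5a2, Col9a3, Col12a1, Col14a1, Col22a1 and Col26a1 were not matched. Capitals mark each match on either strand to 4 short motifs, and no matches overlap. The first is the TATA box, spelled TATAAA. The second, spelled CCAAT, is bound by the factor NF-Y. The third is the GC box of Sp1, whose letters are GGGCGG. The last is the core of sites for RUNX factors, which reads TGTGGT.
Col11a2: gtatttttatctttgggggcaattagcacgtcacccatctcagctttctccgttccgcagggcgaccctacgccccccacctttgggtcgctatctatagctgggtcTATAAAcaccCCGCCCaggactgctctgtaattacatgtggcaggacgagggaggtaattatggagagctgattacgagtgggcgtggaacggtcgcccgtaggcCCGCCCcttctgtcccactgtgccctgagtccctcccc
Col13a1: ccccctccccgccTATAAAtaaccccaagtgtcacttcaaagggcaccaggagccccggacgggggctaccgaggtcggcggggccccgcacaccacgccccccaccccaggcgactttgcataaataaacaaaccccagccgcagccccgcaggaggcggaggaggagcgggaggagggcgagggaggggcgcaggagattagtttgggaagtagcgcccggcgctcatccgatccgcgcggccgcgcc
Col10a1: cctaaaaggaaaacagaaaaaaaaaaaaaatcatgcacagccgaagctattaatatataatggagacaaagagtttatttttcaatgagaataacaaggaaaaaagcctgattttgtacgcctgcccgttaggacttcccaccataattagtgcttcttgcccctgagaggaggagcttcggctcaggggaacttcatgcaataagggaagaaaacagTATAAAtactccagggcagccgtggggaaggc
Col28a1: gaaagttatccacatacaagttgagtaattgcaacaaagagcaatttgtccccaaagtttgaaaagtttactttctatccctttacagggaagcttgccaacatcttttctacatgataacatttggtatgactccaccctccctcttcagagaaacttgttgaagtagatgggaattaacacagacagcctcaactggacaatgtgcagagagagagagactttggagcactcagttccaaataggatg

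In these windows the TATA box letters began 32 bases before the start of Col10a1, 143 bases before that of Col11a2 and 237 bases before that of Col13a1. Distances are from the RefSeq start, which for Col11a2 lies upstream of the GENCODE gene start printed above (chr17:34039437). Col11a2 also held the GC box letters on the other strand, 133 and 38 bases before its start. The Col28a1 window held none of the 4 motifs. Of the 35 collagens with windows, 5 (14.3%) held the TATA box letters, 13 (37.1%) the NF-Y motif, 21 (60%) the GC box and 3 (8.57%) the RUNX core. A collagen was counted if any of its windows held the motif, and 3 collagens had more than 1 window. Of all 32851 windows of this length, each counted singly, 12.4%, 33.8%, 32.7% and 14% did, so the shares do not rest on the same unit.

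In freshly sorted cells no collagen was called between Δ/Δ and wt/Δ. By edgeR 0 of 39 collagens and 0% of 14605 genes passed, and DESeq2 also called 0 collagens. At an unadjusted p under 0.05 there were 3 collagens, Col8a2, Col18a1 and Col27a1, beside 12.3% of all genes. Col8a2 stood at 4.08, 5.6 and 7.98 CPM in wt/Δ and 13.7, 14.8 and 10.8 CPM in Δ/Δ. Its groups did not overlap (1.16 ± 0.31, adjusted p = 0.257), nor did those of its partner Col8a1, at 361, 458 and 159 CPM and 538, 680.2 and 512 CPM (0.82 ± 0.36, adjusted p = 0.414). Col18a1 was at 0.76 ± 0.27 (adjusted p = 0.328) and Col27a1 at 0.83 ± 0.35 (adjusted p = 0.399). The median log2 fold change was 0.27, beside -0.0066 over all genes.

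Type I chains varied widely within both sorted groups. Summed osteoblast markers varied too, at 7204, 12540 and 15140 CPM in wt/Δ and 5894, 6849 and 8359 CPM in Δ/Δ, with overlap. The part of such cells in the type I levels was not tested. Col1a1 stood at 5381, 10270 and 16810 CPM in wt/Δ and 11070, 8782 and 3571 CPM in Δ/Δ, a difference of -0.47 ± 0.52 (nominal 95% interval -1.49 to 0.55). Col1a2 stood at 16700, 33030 and 23020 CPM and 33970, 30480 and 13890 CPM, a difference of 0.11 ± 0.42 (nominal 95% interval -0.72 to 0.93) whose sign changed without wt/Δ replicate 1 or Δ/Δ replicate 1 or 2. The wt/Δ replicate 1 and Δ/Δ replicate 3 libraries were lowest of their groups for both chains. Col3a1 stood at 589, 326 and 758 CPM and 994, 805 and 486 CPM (0.45 ± 0.36, adjusted p = 0.672). Of the chains lower in week 4 Δ/Δ cultures, Col22a1 stood at 76.0, 163 and 118 CPM in wt/Δ and 139, 126 and 94.3 CPM in Δ/Δ (nominal 95% interval -0.56 to 0.57), and Col11a2 at 94.9, 248 and 172 CPM and 314, 219.7 and 94.6 CPM (-0.63 to 1.21). Both were far above their culture levels, and their groups overlapped. The nominal interval for Col13a1 was -0.64 to 0.63 and for Col11a1 -0.81 to 0.70. All these intervals come from the SE alone and are too narrow for so few libraries.

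Cartilage collagens differed between single sorted libraries by orders of magnitude. Col10a1 stood at 0.075, 398 and 4.04 CPM in wt/Δ and 0.33, 110.2 and 27.9 CPM in Δ/Δ. Col2a1 stood at 8.05, 186 and 53.0 CPM and 87.9, 74.5 and 25.9 CPM, and Col9a1 at 0.45, 15.5 and 3.04 CPM and 0.76, 3.23 and 2.8 CPM. The wt/Δ replicate 2 library was highest for these chains and for Col9a3, and replicate 1 of both groups had hardly any Col10a1. The same library was highest for the cartilage genes Acan (9.83 CPM, with 0.43 to 1.77 CPM in the other 5), Hapln1 (15.6 CPM, with 0.43 to 4.06 CPM in the other 5) and Comp (42.7 CPM, with 1.14 to 20.7 CPM in the other 5). Its 7 chondrocyte markers summed to 98.6 CPM, and to 36.8 to 61.8 CPM in the other 5. Megakaryocyte markers stood apart too, at 1560 CPM in this library and 783 CPM in Δ/Δ replicate 3 (5 genes summed), where the other 4 libraries held 16.5 to 26.1 CPM. Without these 2 libraries edgeR still called 0 collagens, and the part of such cells in the collagen levels was not tested.

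**Figure D5:**
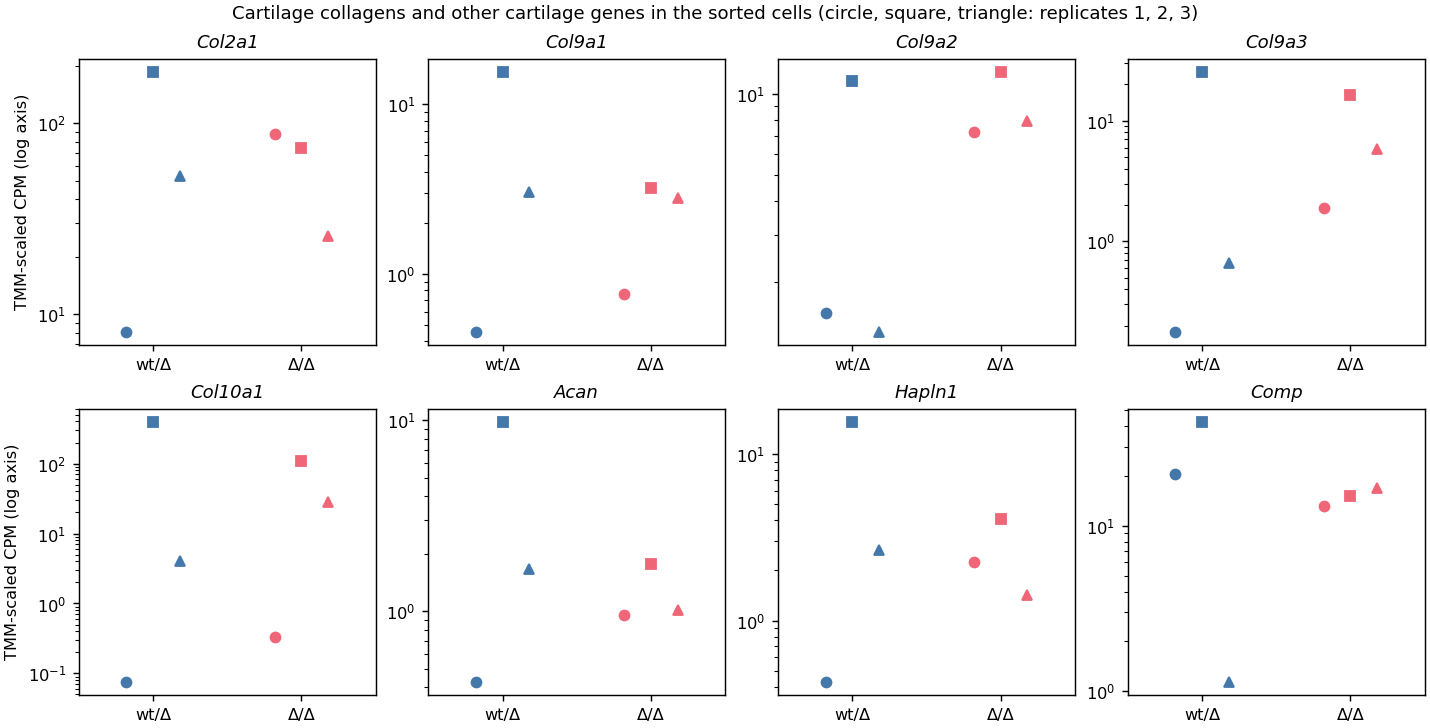
TMM-scaled CPM (log axis) of 5 cartilage collagens and 3 other cartilage genes in the 6 libraries of sorted cells, with replicates 1, 2 and 3 as circle, square and triangle. The wt/Δ replicate 2 library is highest for all but Col9a2, and Col10a1 spans 0.075 to 398 CPM.

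Members that could not be tested in culture were measured in sorted cells, in a separate table and with no test between the tables. Col9a2 stood at 1.3 to 12.0 CPM, Col9a3 at 0.18 to 25.3 CPM, Col26a1 at 3.66 to 10.2 CPM and Col6a5 at 0.23 to 4.27 CPM. Col19a1 stood at 0 to 1.48 CPM, and Col20a1, tested in both, at 2.52 to 9.55 CPM. The collagens that were not tested in sorted cells reached 0.37 CPM (Col7a1), 0.25 CPM (Col4a6), 0.49 CPM (Col6a4), 0.79 CPM (Col4a4) and 0.11 CPM (Col6a6). Log2 fold changes of all 39 tested ran from -1.54 (Col10a1) to 1.43 (Col28a1).

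Chains of 1 molecule were compared as ratios of CPM per kilobase in each library, with no test. Col1a1 was 0.65 ± 0.15 of Col1a2 (SD, n = 3) in week 1 wt/wt and 0.74 ± 0.015 in week 1 Δ/Δ. At week 4 the ratio was 0.67 ± 0.18 in wt/wt and 0.46 ± 0.079 in Δ/Δ, with ranges of 0.47 to 0.8 and 0.38 to 0.53 that overlapped. In sorted cells it was 0.41 ± 0.22 in wt/Δ and 0.26 ± 0.031 in Δ/Δ. Type I collagen protein usually holds more of the Col1a1 chain than of the Col1a2 chain, and in all 18 libraries Col1a1 RNA was below Col1a2 RNA per kilobase. Col4a1 over Col4a2 was 1.03 to 1.28 in week 4 wt/wt and 1.47 to 1.62 in week 4 Δ/Δ, without overlap, while the genotypes overlapped at week 1 (1.45 to 1.68 and 1.35 to 1.5) and in sorted cells (1.23 to 1.65 and 1.3 to 1.5). Over all libraries Col5a1 over Col5a2 ranged over 0.3 to 0.9 and Col6a1 over Col6a2 over 1.55 to 3.46.

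Genes that fold, cut, cross-link or bind collagen were read beside the family. None was called by genotype at week 1 or in sorted cells. At week 4, 8 of 20 tested genes of collagen folding and secretion were lower in Δ/Δ and 2 higher, beside 6.46% and 9.2% of all genes, with a median of -0.33 beside 0.0024 over all genes. Creb3l1, a transcription factor that acts on type I collagen in osteoblasts, was at -1.49 ± 0.11 (adjusted p = 2.81e-06), and Mia2, a factor of export from the endoplasmic reticulum, at -7.36 ± 0.76 (adjusted p = 8.67e-05). The change in genotype difference of Mia2 between the weeks was -5.63 ± 1.99 (edgeR, adjusted p = 0.141). Its counts per group are not given here, so the size of its week 4 difference is uncertain. The collagen chaperone gene Serpinh1 was at -0.43 ± 0.13 (adjusted p = 0.0449) and the prolyl hydroxylase gene P4ha2 at -0.50 ± 0.13 (adjusted p = 0.0218). Plod2, for a lysyl hydroxylase, was higher at 0.68 ± 0.15 (adjusted p = 0.00819).

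Of 12 genes for procollagen cleavage and cross-linking 3 were higher and 2 lower at week 4, beside 9.2% and 6.46% of all genes. Pcolce2, an enhancer of procollagen cleavage, was at -3.38 ± 0.33 (adjusted p = 1.6e-05), and Adamts3, a procollagen peptidase, at 1.32 ± 0.30 (adjusted p = 0.00811). Of 8 tested receptors, the integrin genes Itga1 (1.23 ± 0.11, adjusted p = 8.37e-06) and Itga2 (3.49 ± 0.33, adjusted p = 1.41e-05) were higher and Itga10 (-2.50 ± 0.20, adjusted p = 4.59e-06) lower, beside the same shares of all genes. These genes differed between the same libraries as the osteoblast markers given above, and the part of those cells was not tested.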

How the data were processed

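RNA was measured by full-length cDNA sequencing (SMART-Seq v4 cDNA, Nextera XT libraries, NextSeq 500), which does not mark strand. The authors deposited raw read counts per gene, unnormalized, in one table for the 12 cultured and one for the 6 sorted libraries. Submitters' processing notes name HISAT2 2.0.4, featureCounts 1.6.3 and mm10; strand setting, handling of multimapping reads and annotation are not given in the sources used here.

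Counts were tested with edgeR 4.0.16 (R 4.3.3, limma 3.58.1): filterByExpr with a minimum count of 10, TMM scaling, quasi-likelihood tests, and Benjamini-Hochberg adjustment over all genes tested at 0.05. The 12 cultured libraries shared 1 fit and the 6 sorted libraries another. The edgeR fit was tried on simulated counts for the week 4 and the sorted-cell genotype comparisons. The length and GC offsets were tried on a deficit planted in a library. Other steps were not tried on simulated data. Transcript lengths, positions and exon overlaps came from GENCODE M21 on GRCm38, and promoter windows from RefSeq on GRCm38.p6. Chain ratios and collagen shares are descriptions with no test. A fold change against a group with no counts used a floor of 3 counts over the group.

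The members and gene lists were chosen with earlier results of these data known. Values per library, in at least the groups of the comparison described, are printed for Col1a1, Col1a2 and Col3a1, for up to 4 collagens per direction and comparison that moved furthest among those called (average log2 CPM 3 or more), and for the highest member of each class per kilobase. Other collagens given with values (Col2a1, Col4a1, Col5a1, Col7a1, Col11a2, Col13a1, Col14a1, Col22a1, Col28a1 and others) were chosen after their values were seen, and so were the promoter windows.

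Alternatives were RLE scaling, library size only, no filter, 10 or more counts in all libraries, a replicate block, the DESeq2 test (1.42.0), only the 6 libraries compared, and leaving out each library. Added after seeing the data were offsets for transcript length and GC content (alone and with the block), leaving out both week 4 replicate 1 libraries, the block within the 6 wt/wt libraries, and leaving out both sorted libraries rich in megakaryocyte markers. Deviations of same-numbered wt/wt libraries of weeks 1 and 4 correlated at 0.243, 0.409 and 0.375, so these numbers were taken as pairs in the fits with the block. The main fits held no block, so their wt/wt changes over time are unpaired. Same-numbered week 4 libraries of wt/wt and Δ/Δ correlated at 0.869, 0.34 and -0.159, high only for replicate 1. Apart from the fit of only the 6 wt/wt libraries, the block was fitted across all groups of a table. It thus also tied same-numbered libraries of these and the other groups, whose pairing was not established. Genotype calls given with the block assume that pairing.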

Additional observations from a re-analysis of the deposited data

Results flagged for a closer look

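The genotype difference in culture was called as changed from week 1 to week 4 for 7 collagens, by a test of the change itself (the difference at week 4 minus that at week 1, log2 scale, edgeR). This is 2 higher and 5 lower of 36, beside 4.08% and 3.08% of all genes. Among the 5 lower, Col11a2 and Col22a1 entered only through week 4 wt/wt and are descriptions. Each of the 7 is given as a value, with no explanation weighed. The change was -1.87 ± 0.48 for Col1a1, where Δ/Δ stood above wt/wt at week 1 and below it at week 4. For Col1a2 it was -1.11 ± 0.28, with the same order of the groups. Col11a1 changed by -1.44 ± 0.39 and Col11a2 by -6.09 ± 1.56. Col22a1 changed by -7.05 ± 1.70. These 5 became lower in Δ/Δ against wt/wt.

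The change was 1.12 ± 0.22 for Col10a1 and 3.15 ± 0.39 for Col28a1, both of which became higher in Δ/Δ against wt/wt. Those 2 were called as each of the 12 libraries was left out. Col1a1, Col11a1 and Col11a2 were each lost without any 1 of 9 libraries, Col1a2 without any 1 of 8 and Col22a1 without either of 2, and the number called fell to 2 without week 1 Δ/Δ replicate 1 or 2. Col11a2 and Col22a1 passed the filter on low counts only through week 4 wt/wt, so their changes are descriptions. Groups of 3 libraries were not tested for outlying values.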

How the results depend on the processing

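RLE scaling and library size left each count of called collagens within 1.5 times its main value. At week 1 the 1 call became 2 with no filter, with DESeq2, with length and GC offsets (also with the replicate block) and in a fit of only the 6 libraries. At week 4 the 11 calls became 7 with at least 10 counts in every library and 7 in a fit of only the 6 libraries. For time in wt/wt the 14 calls became 9 with at least 10 counts in every library, 24 with length and GC offsets (with or without the replicate block) and 23 without both week 4 replicate 1 libraries. The 7 changes in genotype difference became 4 and 13 under the first and last of these. Fewer genes or libraries enter some of these fits by construction, and otherwise the cause was not tested. The share of all genes called is given for the main fits only.

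As single libraries were left out, the calls ran over 0 to 1 at week 1, 8 to 16 at week 4, 11 to 21 for time in wt/wt, 9 to 13 for time in Δ/Δ, 2 to 12 for the change in difference and 0 to 0 in sorted cells. With the replicate block they were 1, 11, 15, 17, 8 and 0. Outside wt/wt over time the block also joined same-numbered libraries, whose pairing was not established. Signs turned for 2 values, neither of them called. The change in difference of Col3a1 ran from -0.011 to 0.41, below 0 without week 4 wt/wt replicate 1. The sorted difference of Col1a2 ran from -0.13 to 0.41 as libraries were left out, and was -0.24 with length and GC offsets (-0.24 with the block too).

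Without Col1a1, Col1a2 and Col3a1, the collagens took a mean of 1.62% (week 1 wt/wt), 1.85% (week 1 Δ/Δ), 1.15% (week 4 wt/wt), 1.1% (week 4 Δ/Δ), 0.548% (sorted wt/Δ) and 0.656% (sorted Δ/Δ) of counts. With 3 libraries per group, and collagens under about 1 CPM resting on few counts, differences among the low members were often not detectable at this depth.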

Other observations

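Genes around collagen also changed between the weeks. In wt/wt, folding and secretion genes gave 5 higher and 4 lower of 20 at week 4 against week 1, cleavage and cross-linking genes 2 higher and 4 lower of 12, and receptors 4 higher and 0 lower of 8. In Δ/Δ the counts were 2 higher and 9 lower of 20, 3 higher and 6 lower of 12 and 2 higher and 1 lower of 8, in the same order. All genes tested gave 17.9% higher and 16.1% lower in wt/wt and 18.8% and 16.3% in Δ/Δ.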
